A study of Mus musculus with 21 samples.

Results

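The samples described here were the 11 RNA libraries of mouse brown adipose tissue (BAT), out of 21 libraries in the series, divided by the style of the number in their titles. Titles of 6 libraries end in 1, 2 or 3 (FX_1 to FX_3 and KO_1 to KO_3), and titles of the other 5 end in a long tag (FX_5497, FX_5503, KO_5414, KO_5492 and KO_5494). FX stands in the labels for floxed littermates and KO for BATI4KO mice, taken here as mice that lack the transcription factor Irf4 in brown adipocytes, so that each style holds both genotypes. The 4 resulting groups were floxed with numbers 1 to 3 (n = 3), floxed with long tags (n = 2), BATI4KO with numbers 1 to 3 (n = 3) and BATI4KO with long tags (n = 3). The labels give the same tissue and the same RNA and library protocol for all 11, and state no age, strain, treatment, harvest time, date, run or Cre driver. No label explains the title numbers or ties libraries to animals, and p-values here therefore describe variation among libraries, which may be technical. The comparison asked which transcripts differ between the title styles at equal genotype, and whether they are short RNAs, genes of a given length, or genes of metabolism and the circadian clock.

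Library totals were 20219479 to 41773148 counts. Irf4 matched the genotype labels in both styles: it was at 27.98, 30.7 and 59.8 counts per 1000000 library counts (CPM) in floxed libraries 1 to 3 and at 56.1 and 23.9 CPM in floxed libraries with long tags, against 6.57 to 8.10 CPM in the 6 BATI4KO libraries. Its difference between the styles did not pass (log2 +0.01, SE 0.23, edgeR adjusted p = 0.983). All CPM values are scaled by TMM, a normalisation that assumes most genes do not differ. All log2 values are differences of the libraries numbered 1 to 3 minus those with long tags, from an edgeR quasi-likelihood fit with genotype as a covariate and a threshold of 0.05 on the Benjamini-Hochberg adjusted p.

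Several RNA classes matter here as background. Rmrp and Rpph1 are the RNA components of the RNases MRP and P, which process ribosomal and transfer RNA precursors; small nucleolar RNAs guide modification of ribosomal RNA, and Rnu1b2 and Rnu12 are spliceosomal RNAs. None of these carries a poly(A) tail, and messenger RNAs of replication-dependent histones end in a conserved hairpin instead of one. Brown fat oxidises fatty acids in abundant mitochondria and releases the energy as heat through Ucp1. The circadian clock runs in fat as elsewhere: Clock and Arntl (Bmal1) activate Per, Cry, Nr1d1 and the output factors Dbp, Tef and Hlf, while Per, Cry and Nr1d1 feed back as repressors.

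Shown first are 5 short RNAs that were higher in the libraries numbered 1 to 3, as examples of 4 RNA classes without a poly(A) tail; other models differed by as much or more. The sequences are GENCODE M21 transcripts on build GRCm38, written 5′ to 3′ as DNA, whereas the counts were made on gene models of an earlier build. The model under which Rnu1b2 was counted is longer than the RNA (1172 bases). Capitals mark the stretch of Rnu1b2 that pairs with 5′ splice sites, the Sm-protein site of Rnu12, the ACA box of Snora23, and the C and D boxes of Snord17; Rmrp has no capitals. Rmrp lies at chr4:43492788-43493058 (minus strand, 271 bases), Rnu1b2 at chr3:96374021-96374185 (plus strand, 165 bases), Rnu12 at chr15:83149644-83149794 (plus strand, 151 bases), Snora23 at chr7:110046364-110046547 (plus strand, 184 bases) and Snord17 at chr2:144265979-144266216 (minus strand, 238 bases).
Rmrp: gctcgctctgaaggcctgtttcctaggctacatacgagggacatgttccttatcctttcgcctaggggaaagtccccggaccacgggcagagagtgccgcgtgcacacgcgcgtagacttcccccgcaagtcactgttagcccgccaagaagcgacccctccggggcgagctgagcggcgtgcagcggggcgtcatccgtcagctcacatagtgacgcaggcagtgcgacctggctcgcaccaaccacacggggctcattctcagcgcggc
Rnu1b2: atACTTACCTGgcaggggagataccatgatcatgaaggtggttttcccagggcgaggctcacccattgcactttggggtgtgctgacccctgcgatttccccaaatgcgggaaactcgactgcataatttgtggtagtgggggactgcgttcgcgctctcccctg
Rnu12: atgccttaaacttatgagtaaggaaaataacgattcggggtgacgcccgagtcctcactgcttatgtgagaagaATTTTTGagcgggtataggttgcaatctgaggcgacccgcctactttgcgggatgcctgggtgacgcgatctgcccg
Snora23: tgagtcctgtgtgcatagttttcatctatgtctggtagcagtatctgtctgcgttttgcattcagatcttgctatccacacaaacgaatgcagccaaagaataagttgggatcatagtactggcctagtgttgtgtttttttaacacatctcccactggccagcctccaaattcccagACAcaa
Snord17: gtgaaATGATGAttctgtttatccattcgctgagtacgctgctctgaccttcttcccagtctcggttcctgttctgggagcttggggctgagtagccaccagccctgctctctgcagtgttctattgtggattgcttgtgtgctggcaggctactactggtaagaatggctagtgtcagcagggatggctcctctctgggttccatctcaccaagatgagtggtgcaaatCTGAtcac

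A few short noncoding RNAs were far higher in the libraries numbered 1 to 3. Of 16051 genes tested, 2394 (14.9%) were higher and 2637 (16.4%) lower in these libraries, and 31.3% passed in either direction. Scaling by library totals alone moved the median log2 of all genes from +0.03 to +0.14 and the share of calls that were higher from 47.6% to 66.3%. Gene models under 300 bases took 0.151% to 0.269% of the counts in the libraries numbered 1 to 3 (median 0.190%) and 0.0298% to 0.0413% in those with long tags (median 0.0323%). The groups did not overlap, and the ratio of the geometric means at equal genotype was 5.67 (exact two-sided permutation test within genotype over 200 relabellings, p = 0.005, the smallest it can give; 0.0167 adjusted over 10 such measures). Mir715 and Rmrp carried most of this share: of the summed CPM of these 76 models they made up 83.1% to 94.1% in the libraries numbered 1 to 3 and 65.2% to 69.4% in the others. The remaining 74 models summed to 95.98 to 480.4 CPM and 95.6 to 129.5 CPM, and these ranges overlapped. Of the models under 150 bases 13 of 56 were higher, and of those of 150 to 300 bases 8 of 20. Without the 76 models under 300 bases the fit still had 2384 genes higher and 2629 lower. Library FX_5503 held the highest value of 61.5% of the genes that were lower, and without it 1616 genes were higher and 1819 lower. BATI4KO libraries 1 and 3 held the highest value of 27.1% and 25.2% of the genes that were higher.

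Rmrp, at 299 to 1329.8 CPM (median 429) in the libraries numbered 1 to 3, was at 22.2 and 21.2 CPM in floxed and 21.1, 11.7 and 32.3 CPM in BATI4KO libraries with long tags (log2 +4.70, SE 0.44, edgeR adjusted p = 3.09e-05). Every library numbered 1 to 3 exceeded every library with a long tag. Rpph1 showed the same separation, at 591 to 2140.0 CPM (median 839.5) against 25.1 and 38.2 CPM in floxed and 56.7, 19.4 and 51.6 CPM in BATI4KO (log2 +4.68, SE 0.44, edgeR adjusted p = 3.09e-05). Rnu1b2, a U1 RNA that pairs with 5′ splice sites and has near-identical copies that can share reads, was at 78.2 to 1082 CPM (median 113) against 3.92 to 19.04 CPM (log2 +4.85, SE 0.87, edgeR adjusted p = 0.00151). Rnu12, the U12 RNA of the minor spliceosome, had 1620 counts in the 6 libraries numbered 1 to 3 and 9 counts in the 5 others, which is too few for a fold change to be read. Floxed library 3 held the highest value of all 4 of these RNAs. Rmrp and Rpph1 together made up 0.0890% to 0.325% of counts in libraries numbered 1 to 3 and 0.00311% to 0.00862% in the rest.

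Of 104 small nucleolar and Cajal-body RNA models, 32 passed the expression filter, and of 521 microRNA models 26. A scarce model can pass this filter through the libraries of 1 style alone, which can shape the counts and medians of such lists. Of the 32 small nucleolar and Cajal-body RNAs tested, 11 rose and 0 fell, with a median log2 of +0.89 beside +0.03 for all genes. Snora23, a guide of pseudouridylation in ribosomal RNA, was at 3.67 to 103 CPM (median 6.68) against 0.636 to 1.60 CPM (log2 +4.30, SE 0.96, edgeR adjusted p = 0.00534). Snord17, a box C/D RNA, was at 3.75 to 47.99 CPM (median 6.94) against 0.307 to 0.926 CPM (log2 +4.2, SE 0.75, edgeR adjusted p = 0.00153). Scarna6, of the Cajal body, was at 1.75 to 23.8 CPM (median 2.93) against 0.273 to 0.462 CPM (log2 +3.98, SE 0.74, edgeR adjusted p = 0.00194). None of these 3 RNAs overlapped between the styles, and 9 of the 11 that rose did not (7.26% of all genes were higher without overlap, and 8.63% lower), but 1 library carried much of the size: floxed library 3 was highest for 10 of the 11 that rose. Without it 10 of 32 rose and 1 fell, at a median log2 of +0.65. The number that rose was 4 without library FX_5503 and 7 without library FX_5497. The summed share of these RNAs, 0.00446% to 0.0348% against 0.00294% to 0.00593%, did not pass (exact permutation p = 0.085, adjusted 0.121). Mir715, a 110-base microRNA gene model, behaved more evenly, at 1029 to 1235 CPM (median 1148) against 244 and 214 CPM in floxed and 177, 167 and 217 CPM in BATI4KO libraries with long tags (log2 +2.48, SE 0.12, edgeR adjusted p = 2.66e-07). Of 26 microRNA models 5 rose (19.2%, beside 14.9% of all genes; 3 without library FX_5503) and 1 fell; counts in such models need not come from mature microRNAs.

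Messenger RNAs of replication-dependent histones, the core packaging proteins of new chromatin, were also higher. The 6 H4 hairpins below, with up to 5 flanking bases on each side and the hairpin with its loop in capitals, show the 3′ element that takes the place of a poly(A) tail in these messengers (GENCODE M21, GRCm38, 5′ to 3′). The genes lie at chr13:23760692-23761230, chr13:23697635-23698454, chr13:23581598-23582735, chr13:23531050-23531519, chr6:136801553-136804415 and chr3:96261682-96263311, in the order shown.
Hist1h4a: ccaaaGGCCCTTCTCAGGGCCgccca
Hist1h4c: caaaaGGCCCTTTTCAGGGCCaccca
Hist1h4d: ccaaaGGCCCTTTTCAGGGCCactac
Hist1h4h: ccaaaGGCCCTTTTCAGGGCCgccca
Hist4h4: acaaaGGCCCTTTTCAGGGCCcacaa
Hist2h4: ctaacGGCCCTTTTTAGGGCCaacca

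Of 61 histone models of this kind, 27 passed the expression filter, which scarce models can again pass through 1 style alone. Of these 27, 17 rose and 2 fell, with a median log2 of +1.35. Floxed library 3 was highest for 13 of the 17 that rose; without it 17 rose and 3 fell, at a median of +1.11, and without both libraries numbered 3 the median was +1.05. All 9 H4 models tested rose, against 2 of 4 for H3, 2 of 4 for H2A, 4 of 6 for H2B and 0 of 4 for the linker histone H1. Hist2h4 was at 5.90 to 11.5 CPM (median 7.09) in the libraries numbered 1 to 3 and at 0.375 and 0.333 CPM in floxed and 0.231, 0.154 and 0.270 CPM in BATI4KO libraries with long tags (log2 +4.75, SE 0.21, edgeR adjusted p = 2.66e-07). Hist1h4c was at 6.56 to 33.4 CPM (median 10.9) against 0.709 to 1.23 CPM (log2 +3.61, SE 0.40, edgeR adjusted p = 7.65e-05). Hist1h4d was at 9.01 to 28.02 CPM (median 14.7) against 1.66 to 2.60 CPM (log2 +2.82, SE 0.27, edgeR adjusted p = 3.54e-05). No H4 gene named here overlapped between the styles, and the H4 coding sequences are so alike that reads can be split between them. Hist1h2bc went the other way, at 6.22 to 9.89 CPM (median 7.88) against 10.03 to 18.3 CPM (log2 -0.95, SE 0.16, edgeR adjusted p = 0.00114); no hairpin of the pattern searched was found in its GENCODE transcript. It and Hist2h3c1 were the 2 that fell, and both were named after their values were seen. The 1759-base model of Hist2h3c1 fell (log2 -0.67), a call lost without library FX_5503 or library KO_5492. Its GENCODE transcript does hold 1 hairpin of the pattern searched. Beside these histones of DNA replication, 2 of 21 genes of cell division rose and 2 fell, at a median log2 of -0.03 (+0.08 with library totals). That was 9.52% each way, beside 14.9% higher and 16.4% lower over all genes. The mitotic kinase Bub1 rose (log2 +1.09, SE 0.28, edgeR adjusted p = 0.0109). The ribonucleotide reductase subunit Rrm1 fell (log2 -0.62, SE 0.13, edgeR adjusted p = 0.00373).

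**Figure D1:**
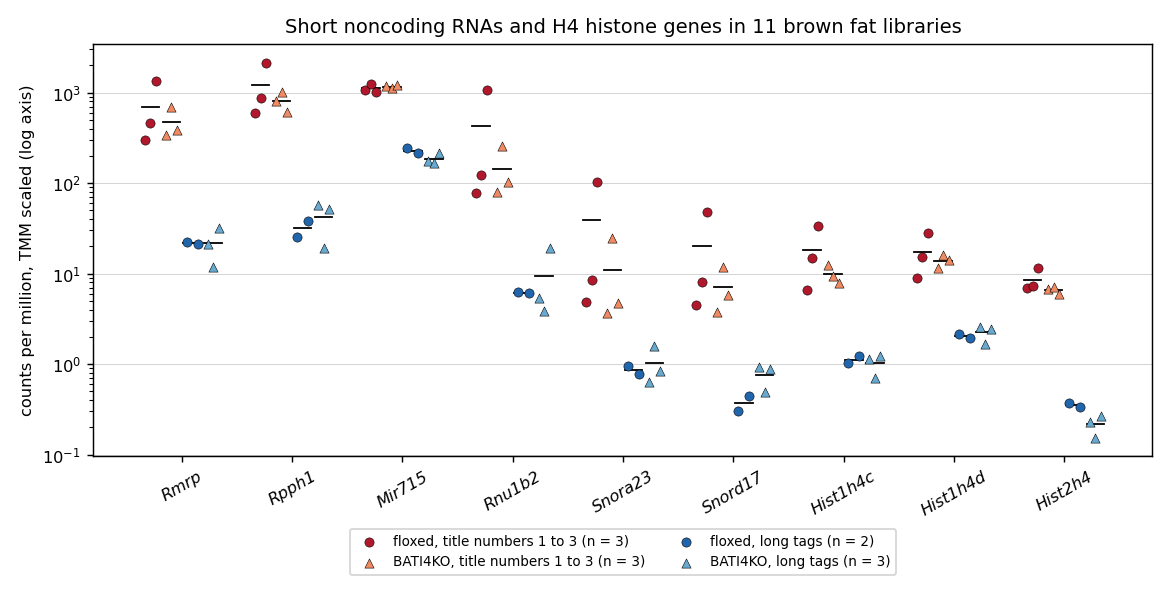
CPM on a log axis for 5 noncoding RNAs, the Mir715 model and 3 H4 histone genes in each of the 11 libraries; points are libraries, bars are group means, circles are floxed and triangles BATI4KO. All 9 genes were higher in every library numbered 1 to 3 (red and orange) than in every library with a long tag (blue), as for Rmrp at 299 to 1329.8 against 11.7 to 32.3 CPM.

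Some of the same RNAs varied among muscle libraries that all carry long tags. In white vastus lateralis (WV), the muscle of the same series, Rmrp was at 107, 108 and 133 CPM in libraries FX_5497, FX_5503 and FX_5514, and at 14.7 and 22.4 CPM in libraries FX_5413 and FX_5415. The 5 BATI4KO libraries of WV lay at 11.8 to 15.2 CPM. Rpph1 in WV was at 273, 295 and 296 CPM in libraries FX_5497, FX_5503 and FX_5514, at 21.0 and 25.9 CPM in the other 2 floxed libraries and at 13.2 to 23.01 CPM in BATI4KO libraries. Hist1h4c was at 4.37, 6.81 and 4.73 CPM in those same 3 libraries and at most 0.426 CPM in the other 7. Tags of 4 libraries occur in both tissues. Rmrp in BAT was at 22.2 and 21.2 CPM in libraries FX_5497 and FX_5503, below their WV values. In library KO_5492 it was alike, at 11.7 CPM in BAT and 11.8 CPM in WV, and in library KO_5494 it was at 32.3 and 12.2 CPM. Rnu1b2 overlapped in WV, at 6.43, 4.76 and 6.90 CPM in libraries FX_5497, FX_5503 and FX_5514 and at 2.78 to 5.19 CPM in the other 7. Mir715 did not separate these libraries: it was at 146, 159 and 167 CPM in the 3 and at 137 to 318 CPM in the other 7. The tables of the 2 tissues were scaled separately, and no test was made between them.

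**Figure D2:**
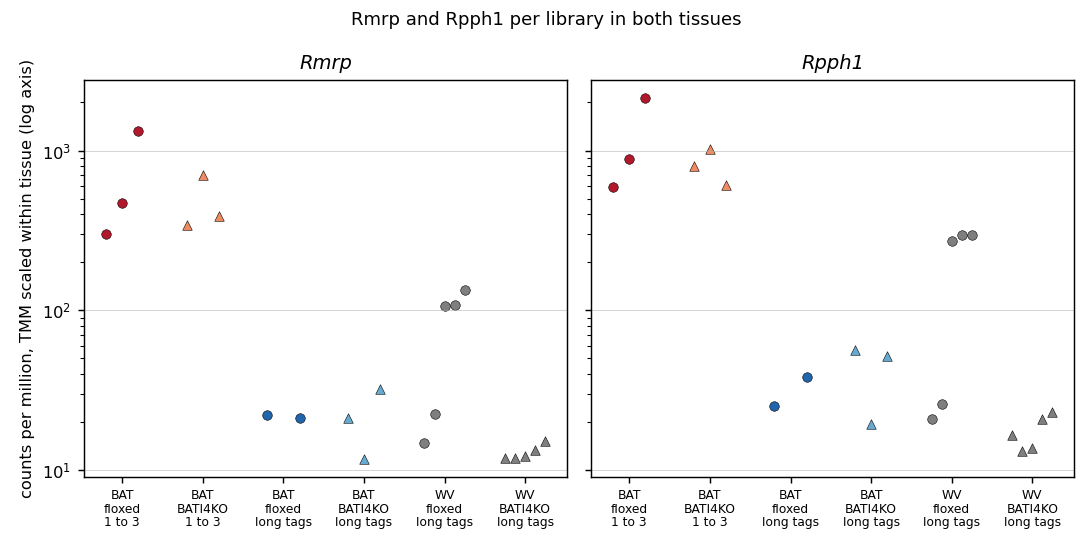
CPM of Rmrp (left) and Rpph1 (right) on a log axis in each library of BAT and WV, scaled within each tissue; circles are floxed and triangles BATI4KO. BAT libraries numbered 1 to 3 lie highest (299 to 1329.8 CPM for Rmrp), 3 floxed WV libraries lie between, and the remaining libraries lie at or below 56.7 CPM in both panels.

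Differences between the styles also varied with the length of the gene model, in a way that was not a straight line. The median log2 was +0.59 for the 56 models under 150 bases, +0.62 for 20 of 150 to 300 bases and +0.21 for 305 of 300 to 600 bases. It was negative at -0.09 for 600 to 1000 bases and -0.14 for 1000 to 2000 bases, where 27.1% of 3129 genes were lower and 9.01% higher. Above 8000 bases it was +0.19, with 27.0% of 1214 genes higher and 4.78% lower. The slope of log2 CPM on log2 length over models of at least 300 bases, in each library relative to the mean library, was -0.0403 to 0.0745 in the libraries numbered 1 to 3 and -0.0803 to 0.0121 in those with long tags. These ranges overlapped, and the difference of 0.0714 had an exact permutation p of 0.04 that did not pass after adjustment over the 10 measures (0.0667). Base composition showed little of this: across the bins of GC content from under 40% to over 60% the median log2 stayed between -0.04 and +0.06.

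The dip at 1000 to 2000 bases was deepest among abundant genes. Of genes with a mean of 100 CPM or more, 62.6% of 198 models of 1000 to 2000 bases were lower, at a median log2 of -0.46, against 20.5% of 915 models of 4000 bases or more, at -0.05. Among genes of 1 to 10 CPM the lower calls made up 14.7% and 0.913% of the same 2 length classes. Models named only by a sequence accession, mostly low-abundance transcripts without a gene symbol, were shifted upward at most lengths: 448 of 1560 were higher and 47 lower, at a median log2 of +0.35. Models with another name had a median of -0.01, with 1946 of 14491 higher and 2590 lower. Genes annotated as long noncoding RNA, also scarce at a median of 2.30 CPM, had 106 higher and 12 lower of 357. Meg3, an imprinted nuclear noncoding RNA, was at 20.1 to 33.0 CPM (median 24.3) against 12.2 to 18.2 CPM (log2 +0.91, SE 0.13, edgeR adjusted p = 0.000459). Snhg11, a host of small nucleolar RNAs, was at 22.9 to 50.5 CPM (median 36.1) against 6.90 to 17.2 CPM (log2 +1.4, SE 0.22, edgeR adjusted p = 0.000655); neither overlapped between the styles. Malat1, the abundant RNA of nuclear speckles, gave a log2 of -0.04 that did not pass (edgeR adjusted p = 0.817).

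**Figure D3:**
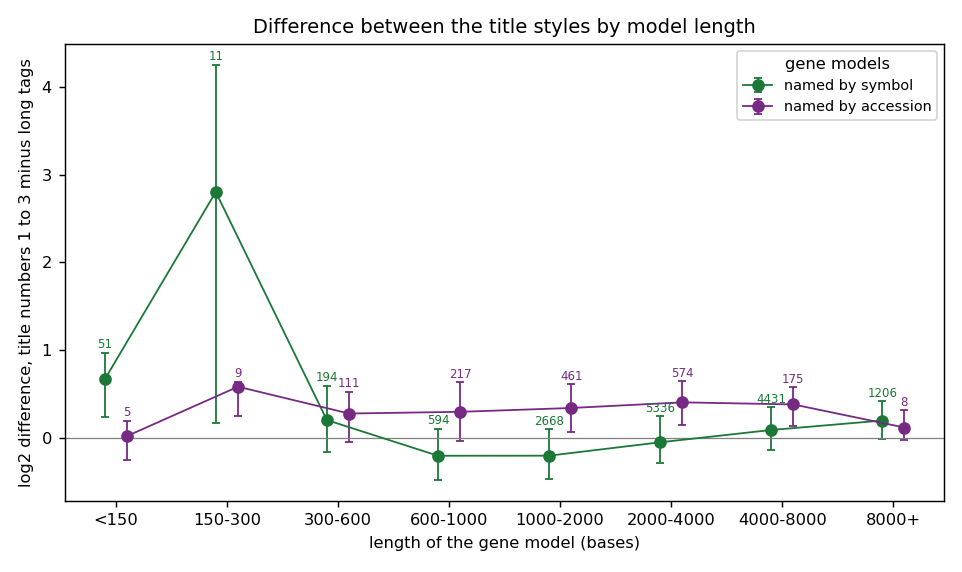
Median log2 difference between the title styles by gene model length, with the quartiles as bars and the number of models above each; green are models named by a symbol and purple those named by an accession. Symbol-named models fall below 0 between 600 and 4000 bases (-0.21, -0.21 and -0.05), where accession-named models stay above 0 (+0.29, +0.34 and +0.40).

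Among messenger RNAs of at least 300 bases, the largest increases beside the histones, taken without regard to function, included the following. Nova2, an RNA-binding splicing factor, was at 17.8 to 36.6 CPM (median 31.3) in the libraries numbered 1 to 3 and at 5.19 and 5.51 CPM in floxed and 4.66, 6.38 and 6.01 CPM in BATI4KO libraries with long tags (log2 +2.43, SE 0.17, edgeR adjusted p = 6.04e-06). Every library numbered 1 to 3 was above every other library for Nova2 and for each gene named in this paragraph as risen. Mospd3, a membrane protein with a major sperm protein domain, rose by +2.64 on the log2 scale (adjusted p = 1.16e-05 by edgeR), and the proline-rich nuclear protein Prr12 by +2.12 (edgeR adjusted p = 7.42e-06). The histone H3 lysine 4 methyltransferases Setd1b and Mll2 rose by +2.03 and +1.68 (edgeR adjusted p = 0.000152 and 0.0002). Tcf7l2, a transcription factor of the Wnt pathway, rose by +1.67, Unc45b, a chaperone of muscle myosin, by +1.82, and the homeodomain zinc-finger gene Zfhx2 by +1.62 (edgeR adjusted p = 3.53e-05, 0.000289 and 0.00146).

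Decreases were largest in 2 accession-named models. Elovl3, described with the thermogenic genes, fell by 2.85 on the log2 scale but its libraries overlapped; the genes given here did not overlap. GU332589, a 1588-base model named after its values were seen, was at 1.99 to 10.3 CPM (median 2.39) in the libraries numbered 1 to 3 and at 903 and 669 CPM in floxed and 483, 650.4 and 1646 CPM in BATI4KO libraries with long tags (log2 -7.87, SE 0.55, edgeR adjusted p = 5.47e-06). AK144265, a 402-base model also named after its values were seen, was at 1.73 to 7.70 CPM (median 2.61) against 65.1 and 22.1 CPM in floxed and 45.8, 92.8 and 29.98 CPM in BATI4KO (log2 -3.86, SE 0.44, edgeR adjusted p = 0.000101). Both models were lower in every library numbered 1 to 3, opposite to most accession-named models. Lars2, the mitochondrial leucyl-tRNA synthetase, was at 99.9 to 243 CPM (median 125) against 301 to 1062 CPM (log2 -2.02, SE 0.35, edgeR adjusted p = 0.00136). In WV, where all tags are long, Lars2 spread from 117 to 4435 CPM, and GU332589 from 82.0 to 449 CPM. For GU332589 every WV library was thus above the BAT libraries numbered 1 to 3, under separate scaling. Mrpl39, a protein of the mitochondrial ribosome, was at 29.0 to 33.7 CPM (median 31.1) against 76.9 and 103 CPM in floxed and 93.4, 85.7 and 77.7 CPM in BATI4KO (log2 -1.5, SE 0.09, edgeR adjusted p = 2.53e-06). Stub1, a ubiquitin ligase that works with heat shock chaperones, fell by 1.45 on the log2 scale, Coq7, an enzyme of ubiquinone synthesis, by 1.39, and Mphosph10, a component of the U3 small nucleolar particle, by 1.37 (edgeR adjusted p = 4.04e-06, 7.77e-06 and 2.96e-05). Apart from Elovl3, the BAT libraries of the 2 styles did not overlap for any gene of this paragraph.

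Genes of mitochondrial fuel oxidation were lower in the libraries numbered 1 to 3, as were many abundant genes of like length, and none of the 25 fatty acid oxidation or 22 citric acid cycle genes rose. In fatty acid oxidation 20 of 25 fell (16.4% of all genes were lower), at a median log2 of -0.55. Decr1, the dienoyl-CoA reductase needed for unsaturated fatty acids, was at 389 to 634 CPM (median 542) against 745 and 1001 CPM in floxed and 1015, 789 and 697 CPM in BATI4KO (log2 -0.74, SE 0.15, edgeR adjusted p = 0.00339). Acaa1a, a thiolase of peroxisomes, was at 49.5 to 55.0 CPM (median 53.2) against 86.7 to 92.1 CPM (log2 -0.77, SE 0.06, edgeR adjusted p = 1.23e-05); neither gene overlapped between the styles. The 5 that did not pass were Etfa (-0.24), Acads (-0.19), Hadh (-0.12), Cpt1a (-0.08) and Acadl (-0.01), the last 2 being the liver-type carnitine transferase and the long-chain dehydrogenase. These 5, and Cs and Mdh2 below, were named after their values were seen. Without library FX_5503, 14 of the 25 fell, at a median of -0.52. In floxed libraries alone, which are fewer, 1 fell (median -0.45), and in BATI4KO libraries alone 16 fell (median -0.60). In the citric acid cycle 13 of 22 fell, at a median of -0.50 (13 at -0.47 without library FX_5503). For this list 0 fell in floxed libraries alone (median -0.39) and 13 in BATI4KO libraries alone (median -0.59). Sdha, the flavoprotein of succinate dehydrogenase, was at 1423 to 1991 CPM (median 1627) against 2313 to 3129 CPM, without overlap (log2 -0.74, SE 0.11, edgeR adjusted p = 0.000477). Dld, the shared dihydrolipoamide dehydrogenase, fell (log2 -0.83, SE 0.12, edgeR adjusted p = 0.000362), as did Idh3b, of isocitrate dehydrogenase (log2 -0.65, SE 0.10, edgeR adjusted p = 0.000762). In floxed library 3, the highest in Rmrp, Sdha was at 1599 CPM, inside the range of the other libraries numbered 1 to 3, and Decr1 at 634 CPM, the highest of the 6. Citrate synthase (Cs, -0.14) and Mdh2 (-0.11) did not pass.

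Nuclear-encoded subunits of oxidative phosphorylation were split. Of 83 tested, 8 rose (9.64%) and 34 fell (41.0%), at a median log2 of -0.24. Over all genes 14.9% were higher and 16.4% lower. Only 5 rose without library FX_5497 or FX_5503, and 38 fell without the former and 29 without the latter. Complex I had 3 higher and 14 lower of 37, complex II 0 and 3 of 4, complex III 1 and 5 of 8, complex IV 4 and 4 of 16, and the ATP synthase 0 and 8 of 17. Ndufb10, of complex I, fell without overlap, being at 51.2 to 69.9 CPM (median 57.7) against 137 and 168 CPM in floxed and 163, 144 and 148 CPM in BATI4KO libraries with long tags (log2 -1.38, SE 0.09, edgeR adjusted p = 4.04e-06). Atp5c1, the gamma subunit of the ATP synthase, fell by 1.07 on the log2 scale (edgeR adjusted p = 0.000283). Uqcrq, a small subunit of complex III, rose without overlap, being at 141 to 290.0 CPM (median 217) against 82.6 to 117 CPM (log2 +1.06, SE 0.16, edgeR adjusted p = 0.00057). Cox7a1, a complex IV subunit form of heart and brown fat, also rose without overlap, being at 83.5 to 239 CPM (median 119.7) against 47.3 to 69.1 CPM (log2 +1.01, SE 0.23, edgeR adjusted p = 0.00631). The split varied with model length. Among subunits with models under 600 bases 7 rose and 9 fell of 32 (median +0.10). Among the longer ones 1 rose and 25 fell of 51 (median -0.35). At 300 to 600 bases 22.6% of 31 subunits were higher and 25.8% lower, beside 19.7% and 8.20% of all genes. At 600 to 1000 bases 26.1% were lower beside 22.7%, and at 1000 to 2000 bases 75% beside 27.1%. Of all genes of 1000 to 2000 bases at 100 CPM or more, 62.6% were lower. The list was not matched for length and abundance together. The list stayed split after length correction, with 10 higher and 32 lower at a median of -0.19. In floxed libraries alone the list median was -0.05, and in BATI4KO libraries alone -0.37; this difference between genotypes was not tested. The list of subunits encoded by mitochondrial DNA held only 3 gene models. Of these, mt-Nd4 rose (log2 +0.64, SE 0.13, edgeR adjusted p = 0.00367). Cytb also rose (log2 +0.39, SE 0.12, edgeR adjusted p = 0.0236), a call lost without library FX_5503 or BATI4KO library 1. Cox2, the cytochrome oxidase subunit, fell (log2 -0.59, SE 0.14, edgeR adjusted p = 0.00891).

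Genes of the mitochondrial ribosome and the proteasome were lower as well, whereas cytosolic ribosomal proteins moved both ways. For the mitochondrial ribosome, 1 rose and 51 fell of 71 tested (median -0.52), in both its large subunit (31 lower of 44) and its small subunit (20 lower of 27). Mrps5 was at 21.1 to 31.1 CPM (median 24.1) against 46.6 to 65.1 CPM (log2 -1.23, SE 0.11, edgeR adjusted p = 3.09e-05). Mrpl24 was at 17.7 to 20.7 CPM (median 17.9) against 35.1 to 46.3 CPM (log2 -1.08, SE 0.09, edgeR adjusted p = 1.16e-05); neither overlapped between the styles. For the proteasome, 1 rose and 27 fell of 42 tested (median -0.55), with 15 lower of 20 in the regulatory particle and 10 lower of 18 in the core. Psmc3, an ATPase of the regulatory particle, was at 37.7 to 45.7 CPM (median 41.6) against 74.98 to 102 CPM (log2 -1.05, SE 0.10, edgeR adjusted p = 3.53e-05). Psmd4, its ubiquitin receptor, was at 53.9 to 59.95 CPM (median 56.4) against 96.2 to 139.6 CPM (log2 -1.04, SE 0.11, edgeR adjusted p = 4.78e-05), again without overlap in both genes. Without library FX_5503, 44 mitochondrial ribosomal and 20 proteasome genes fell. In floxed libraries alone 7 and 9 fell, and in BATI4KO libraries alone 45 and 19. The one proteasome gene that rose, Psmb11, is the thymus-specific subunit and was low throughout, at 2.72 to 4.64 CPM (median 3.19) against 1.97 to 2.31 CPM; like Mrpl14, the one riser among mitochondrial ribosomal proteins (+0.66), it was named after its values were seen. Of cytosolic ribosomal proteins, 11 rose and 18 fell of 81 tested (median -0.06, and +0.05 with library totals). That was 13.6% higher and 22.2% lower, near the 14.9% and 16.4% of all genes. With models under 600 bases 9 rose (36%) and 1 fell (4%) of 25, and with longer models 2 rose and 17 fell (30.4%) of 56. All genes also turned with length: at 300 to 600 bases 19.7% were higher and 8.20% lower. At 600 to 1000 bases 9.37% of all genes were higher and 22.7% lower. Rpl38 (369 bases) rose (log2 +0.92, SE 0.23, edgeR adjusted p = 0.00961). Rpl19 (805 bases) fell (log2 -0.88, SE 0.11, edgeR adjusted p = 0.000196); ribosomal protein genes have processed pseudogenes that can share their reads. Without floxed library 3, 13 rose and 30 fell, at a median of -0.20.

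These 4 lists were compared with all genes of the same length, and then also of the same abundance, since abundant genes were lower more often. Among models of 2000 to 4000 bases, where all 5910 genes had a median log2 of -0.02 and 17.5% were lower, the median was -0.57 (8 lower of 8) for fatty acid oxidation, -0.55 (6 lower of 9) for the citric acid cycle, -0.40 (8 lower of 12) for mitochondrial ribosomal proteins and -0.46 (8 lower of 10) for the proteasome. Among models of 1000 to 2000 bases, where all genes had a median of -0.14, it was -0.57 (7 lower of 10), -0.54 (5 lower of 9), -0.62 (25 lower of 30) and -0.66 (14 lower of 21) in the same order. Those backgrounds hold many scarce genes. Among models of 1000 to 2000 bases at 100 CPM or more, where 62.6% of 198 genes were lower at a median of -0.46, 5 of 8 fatty acid oxidation genes (-0.48) and 5 of 9 citric acid cycle genes (-0.54) were lower, which is near that background. Among models of 2000 to 4000 bases at 100 CPM or more, where 43.8% of 427 genes were lower (median -0.27), 7 of 7 (-0.57) and 6 of 9 (-0.55) were. At 10 to 100 CPM the mitochondrial ribosomal proteins had 24 lower of 29 (-0.61) among models of 1000 to 2000 bases, where 48.5% of 1060 genes were lower (-0.31), and 8 of 12 (-0.40) at 2000 to 4000 bases, where 29.8% of 2562 were (-0.14). The proteasome had 12 lower of 18 (-0.68) and 5 of 7 (-0.35) in the same 2 classes. A fit that removed a smooth trend of each library with gene length gave medians of -0.48 with 19 lower for fatty acid oxidation, -0.41 with 15 lower for the citric acid cycle, -0.40 with 49 lower for mitochondrial ribosomal proteins and -0.43 with 27 lower for the proteasome. The medians of these lists stayed negative under the 4 other scalings tried. Under cyclic loess scaling the numbers lower were 12, 9, 47 and 24 in the same order. Without both libraries numbered 3 their medians were -0.54, -0.47, -0.52 and -0.56.

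Thermogenic genes of brown adipocytes moved both ways, with Ucp1, Cidea, Elovl3 and Dio2 among those that fell. Ucp1 was at 1401 to 3026 CPM (median 2218) in the libraries numbered 1 to 3 and at 3452 and 7606 CPM in floxed and 2595, 4468 and 3003 CPM in BATI4KO libraries with long tags (log2 -1.0, SE 0.22, edgeR adjusted p = 0.00437). Its ranges overlapped, and library FX_5503 stood far above the rest. Cidea, a lipid-droplet protein typical of brown fat, separated fully, at 589 to 797 CPM (median 714) against 1255 and 1492 CPM in floxed and 1698, 1349 and 1266 CPM in BATI4KO (log2 -1.03, SE 0.11, edgeR adjusted p = 8.55e-05). Elovl3, a fatty acid elongase induced by cold, was at 3.51 to 17.5 CPM (median 6.58) against 92.5 and 94.8 CPM in floxed and 27.1, 57.9 and 13.6 CPM in BATI4KO (log2 -2.85, SE 0.40, edgeR adjusted p = 0.000362); its values were high in the floxed libraries with long tags and lower in the BATI4KO ones. Dio2, which activates thyroid hormone, fell by 1.139 on the log2 scale (edgeR adjusted p = 0.00979), and Acsl5, an acyl-CoA synthetase, by 1.16 (edgeR adjusted p = 0.00597). Prdm16, a coregulator that specifies brown fat, rose (log2 +0.88, SE 0.18, edgeR adjusted p = 0.00374). Ppargc1a, the coactivator of mitochondrial genes, gave -0.24 and did not pass (edgeR adjusted p = 0.481); it and Prdm16 were named after their values were seen. Of 31 thermogenic genes 4 rose (12.9%) and 11 fell (35.5%), at a median of -0.15, and +0.01 in floxed libraries alone. Over all genes 14.9% were higher and 16.4% lower. The thermogenic list had a median of 234 CPM and 3350 bases. Among all genes at 100 CPM or more with models of 2000 to 4000 bases, 6.56% were higher and 43.8% lower. Of 15 brown adipocyte markers 3 rose and 8 fell (median -0.30). Their summed level was 10011 to 14466 CPM in the libraries numbered 1 to 3 and 14991 to 24925 CPM in the others, so markers of the labelled tissue were abundant in all 11. In whole tissue, fewer brown adipocytes and less of these RNAs per cell cannot be told apart.

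Among other genes of lipid use, 1 rose and 8 fell of 16 genes of lipolysis and lipid droplets (median -0.39). Over all genes 14.9% were higher and 16.4% lower. The share lower was 24.7% for all genes at 10 to 100 CPM and 32.2% for those at 100 CPM or more. The lists of this paragraph were not matched for length and abundance together. Of all genes of 2000 to 4000 bases, 29.8% were lower at 10 to 100 CPM and 43.8% at 100 CPM or more. Of all genes of 1000 to 2000 bases at 10 to 100 CPM, 48.5% were lower. The lipolysis list (50% lower) had a median of 415 CPM and 2859.5 bases. Cidec, which enlarges lipid droplets, was at 482 to 698 CPM (median 601) against 958 to 1433 CPM (log2 -0.96, SE 0.09, edgeR adjusted p = 3.54e-05). Abhd5, the coactivator of the triglyceride lipase, was at 86.9 to 129 CPM (median 115) against 137 to 340.5 CPM (log2 -0.85, SE 0.16, edgeR adjusted p = 0.00236); neither overlapped. Pnpla2, that lipase, was the single gene of the list that rose (log2 +0.38, SE 0.10, edgeR adjusted p = 0.0121; named after its values were seen). Triglyceride synthesis gave 3 higher and 3 lower of 23; Dgat1, which forms triglyceride, fell (log2 -0.75, SE 0.11, edgeR adjusted p = 0.000464). The number lower was 12 without BATI4KO library 2, 5 without library KO_5494 and 1 without library FX_5503. Cholesterol synthesis had 3 higher and 10 lower (45.5%) of 22, in a list with a median of 17.4 CPM and 3118 bases. There were 3 to 6 lower without any 1 of libraries FX_2, FX_5503, KO_1, KO_3, KO_5414 and KO_5492. Pmvk, its phosphomevalonate kinase, fell (log2 -1.33, SE 0.19, edgeR adjusted p = 0.000411). In glycolysis 10 of 26 fell (38.5%) and 0 rose. The median member was at 200 CPM, and of all genes at 100 CPM or more with models of 2000 to 4000 bases 43.8% were lower. Ldha, lactate dehydrogenase, was at 546 to 781 CPM (median 618) against 928 to 1498 CPM (log2 -0.89, SE 0.15, edgeR adjusted p = 0.000956). Of 19 genes induced in fasting, with a median of 58.8 CPM and 2641 bases, 6 fell (31.6%). Among them was the thioesterase Acot1 (log2 -1.35, SE 0.28, edgeR adjusted p = 0.00382). Stress genes were lower or did not pass. Of 20 heat shock proteins, with a median of 72.6 CPM and 2698.5 bases, 8 fell (40%). Hspa9, the mitochondrial form, was at 903 to 1236 CPM (median 1001) against 1459 to 2155 CPM (log2 -0.76, SE 0.11, edgeR adjusted p = 0.000384). Of 18 genes of the unfolded protein and integrated stress responses, with a median of 47.0 CPM and 1899 bases, 7 fell (38.9%). This was below the 48.5% of all genes of 1000 to 2000 bases at 10 to 100 CPM. The endoplasmic chaperone Hspa5 was at 278 to 370.3 CPM (median 342) against 429 to 659 CPM (log2 -0.60, SE 0.10, edgeR adjusted p = 0.00101). Neither chaperone overlapped between the styles. Immediate early genes, glucocorticoid targets, hypoxia targets and interferon genes had at most 2 members passing in a direction, of 24, 19, 16 and 24 tested; without library KO_5494 the interferon genes had 5 higher. Genes of insulin signalling had 3 higher and 1 lower of 19, with 1 higher without library KO_5492.

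**Figure D4:**
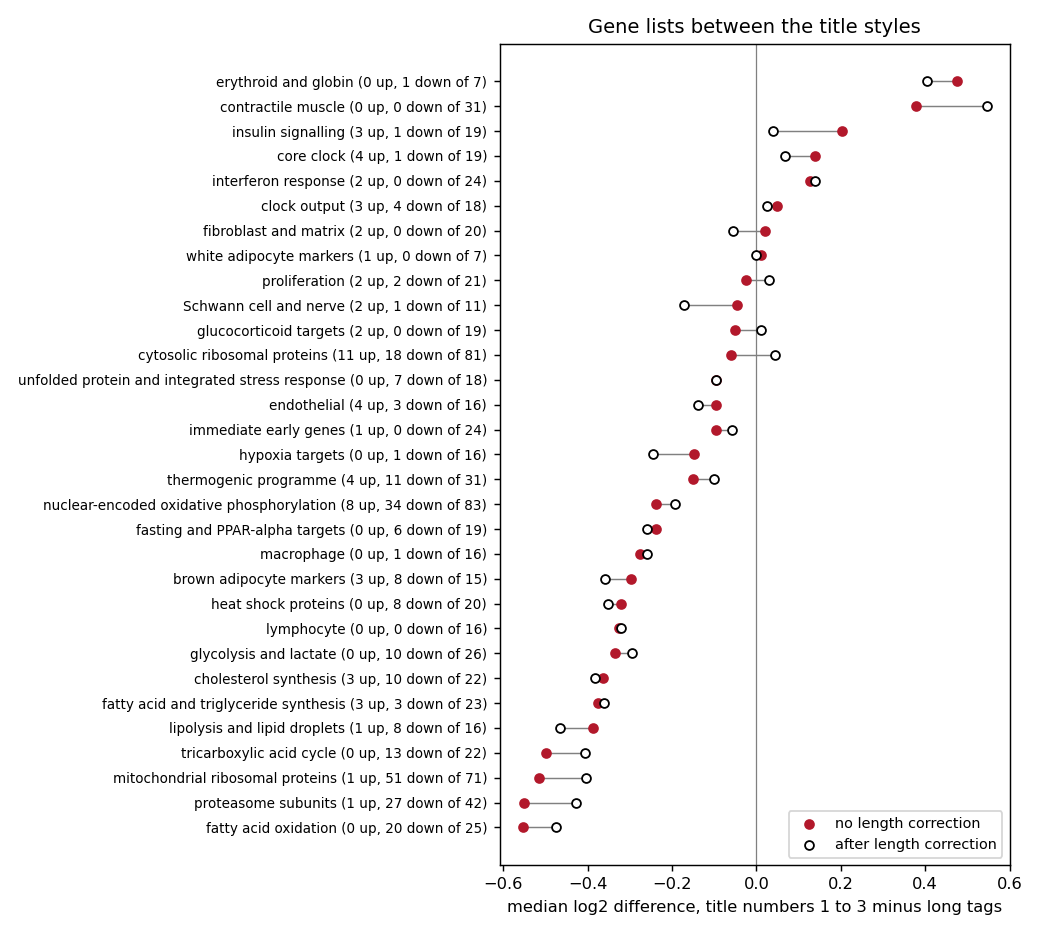
Median log2 difference between the title styles for gene lists with at least 5 genes tested (filled), and after a length correction (open); the counts that rose and fell stand beside each name. Fatty acid oxidation, the proteasome, mitochondrial ribosomal proteins and the citric acid cycle lie lowest, between -0.55 and -0.50, and remain at -0.48 to -0.40 after correction.

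Some core clock genes differed between the styles, 21.1% being higher and 5.26% lower, beside 14.9% and 16.4% of all genes. Of 19 tested, 4 rose and 1 fell, at a median log2 of +0.14, beside 31.3% of all genes passing; without library FX_5503, 2 rose and 1 fell. Nr1d1 (Rev-erb alpha), the repressor of Arntl, was at 114 to 182 CPM (median 136) in the libraries numbered 1 to 3 and at 34.1 and 61.4 CPM in floxed and 69.5, 78.2 and 100.3 CPM in BATI4KO libraries with long tags (log2 +1.15, SE 0.18, edgeR adjusted p = 0.000762). It was the single core clock gene whose libraries did not overlap. Per1, a repressor, was at 103 to 155 CPM (median 136) against 121 and 69.4 CPM in floxed and 53.3, 74.98 and 71.7 CPM in BATI4KO (log2 +0.75, SE 0.19, edgeR adjusted p = 0.00984); its ranges overlapped through library FX_5497. Per2, its relative, was at 80.1 to 148 CPM (median 95.5) against 98.6 and 79.2 CPM in floxed and 58.6, 55.8 and 69.7 CPM in BATI4KO (log2 +0.48, SE 0.14, edgeR adjusted p = 0.0188), also with overlap. After length correction Nr1d1 gave +1.18 and Per1 +0.66 on the log2 scale (edgeR adjusted p = 0.000661 and 0.0132). Cry2 rose least (log2 +0.33, SE 0.11, edgeR adjusted p = 0.0402) and lost the call after length correction (log2 +0.22, edgeR adjusted p = 0.166) and without any 1 of libraries FX_1, FX_2, FX_3, FX_5503, KO_2, KO_3, KO_5492 and KO_5494 (edgeR adjusted p = 0.0521 to 0.127). Per2 lost it without library FX_5503 (log2 +0.44, edgeR adjusted p = 0.0621). Clock, the activator, was at 122 to 147 CPM (median 136) against 202 and 265 CPM in floxed and 132, 154 and 155 CPM in BATI4KO (log2 -0.43, SE 0.12, edgeR adjusted p = 0.0163).

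Arntl, the partner of Clock, was at 2.42 to 4.43 CPM (median 2.85) in the libraries numbered 1 to 3 and at 4.47 and 19.3 CPM in floxed and 3.04, 2.31 and 2.85 CPM in BATI4KO libraries with long tags, and did not pass (log2 -0.89, SE 0.40, edgeR adjusted p = 0.112). Its value in library FX_5503 stood apart from all 10 others, which was also the library highest for Clock and Ucp1 and lowest for Per3 (61.3 CPM, against 91.8 CPM or more elsewhere). The close relative Nr1d2 (+0.08, edgeR adjusted p = 0.631), Cry1 (-0.01, 0.965), Per3 (+0.31, 0.237) and Bhlhe40 (-0.10, 0.86) did not pass. Nor did Npas2 (+0.30), Csnk1d (+0.14), Csnk1e (-0.15), Fbxl21 (+0.43), Gm129 (+0.34), Bhlhe41 (+0.46) or Rora (-0.22, which fell without BATI4KO library 3: log2 -0.34, edgeR adjusted p = 0.0221). Of the output factors, Hlf rose without overlap, being at 61.4 to 115 CPM (median 65.2) against 44.8 and 32.7 CPM in floxed and 40.8, 48.6 and 39.5 CPM in BATI4KO libraries with long tags (log2 +0.83, SE 0.17, edgeR adjusted p = 0.00302). Dbp was at 33.3 to 42.3 CPM (median 37.8) against 16.3 and 16.3 CPM in floxed and 40.2, 32.7 and 35.0 CPM in BATI4KO (log2 +0.56, SE 0.18, edgeR adjusted p = 0.0305), with low values in the floxed libraries with long tags alone. Its call was lost without any 1 of libraries FX_1, FX_2, FX_5497 and FX_5503 (edgeR adjusted p = 0.0513 to 0.123). A 546-base model of Tef rose (log2 +1.54, SE 0.39, edgeR adjusted p = 0.0112), whereas its 6272-base model gave a log2 of +0.12. In the output list as a whole 3 rose (5 without library KO_5414) and 4 fell of 18 (median +0.05); those that fell were Elovl3, the elongation factor subunit Leo1 (log2 -1.25, SE 0.19, edgeR adjusted p = 0.000504), the P450 reductase Por (-0.39) and the calcineurin regulator Rcan1 (-0.35), the last losing its call without library FX_5503 or BATI4KO library 1. The output list was thus 16.7% higher and 22.2% lower, beside 14.9% and 16.4% of all genes. Glucocorticoid targets gave 2 higher and 0 lower of 19, Per1 being 1 of the 2.

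Promoters of clock genes were read for 3 motifs, on both strands, in the 300-base RefSeq windows (250 bases before to 50 after the start, build GRCm38.p6) found for 29 of 36 clock and output gene models. The E-box CACGTG was present in 7 of the 29, against 7.15% of all 32851 promoters, the D-box TTATGTAA in 1 (0.938% of all) and the ROR core TAGGTCA in 2 (2.61% of all). Of the 10 genes of the 29 that passed, Per1, Rcan1 and Tef had an E-box in this window, Leo1 the ROR core, and Nr1d1, Cry2, Clock, Hlf, Dbp and Por no match. The promoters of the strongest and second strongest core clock risers are printed with matches in capitals, Nr1d1 at chr11:98775328-98775627 (minus strand) and Per1 at chr11:69098699-69098998 (plus strand); a match is a description of the letters only.
Nr1d1: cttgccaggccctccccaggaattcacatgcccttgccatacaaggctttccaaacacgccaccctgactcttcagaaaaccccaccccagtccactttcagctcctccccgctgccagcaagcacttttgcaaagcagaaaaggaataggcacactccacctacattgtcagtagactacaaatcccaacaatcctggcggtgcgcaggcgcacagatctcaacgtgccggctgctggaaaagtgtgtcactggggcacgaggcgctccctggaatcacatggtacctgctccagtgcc
Per1: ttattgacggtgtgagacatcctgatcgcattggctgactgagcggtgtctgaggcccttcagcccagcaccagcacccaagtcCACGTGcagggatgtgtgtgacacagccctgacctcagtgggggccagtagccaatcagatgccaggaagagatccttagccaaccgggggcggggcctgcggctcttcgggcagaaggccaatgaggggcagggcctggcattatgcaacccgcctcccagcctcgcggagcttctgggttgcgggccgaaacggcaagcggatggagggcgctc

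**Figure D5:**
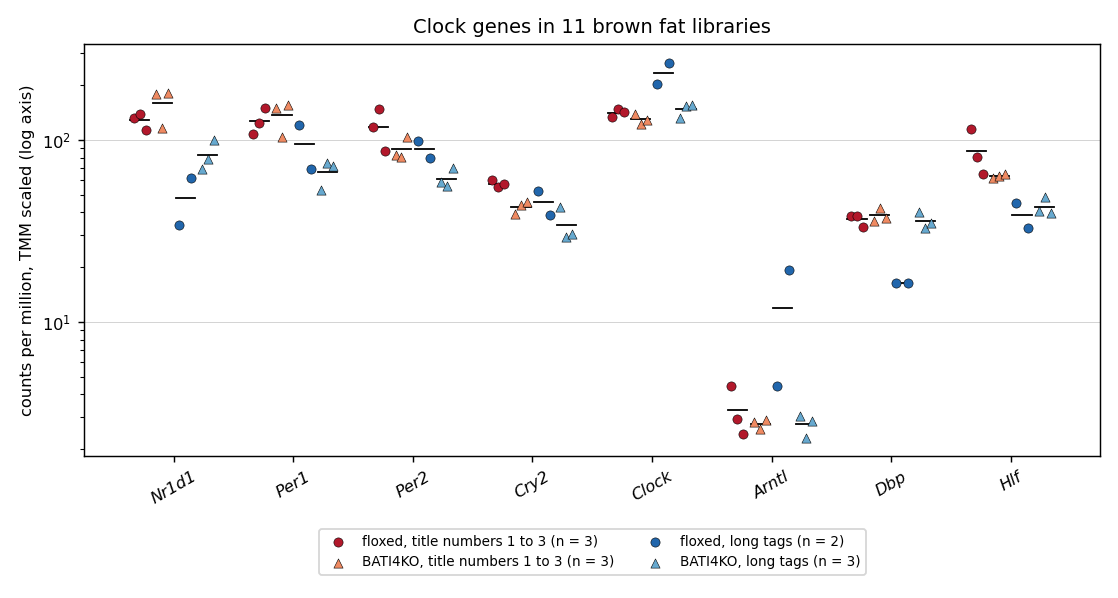
CPM on a log axis for 6 core clock genes and the output factors Dbp and Hlf in each of the 11 libraries; points are libraries, bars are group means. Nr1d1 and Hlf do not overlap between the title styles, and the single high point of Arntl (19.3 CPM) is library FX_5503.

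Whether the difference between the styles depended on genotype was tested as an interaction. Cnnm2, a transporter-like protein of magnesium handling, was the 1 gene of 16051 that passed (0.00623%; 1249 had an unadjusted p under 0.05). In floxed libraries it was at 77.4, 79.1 and 82.0 CPM with numbers 1 to 3 and at 185 and 176 CPM with long tags. In BATI4KO libraries it was at 68.8, 86.4 and 83.1 CPM with numbers 1 to 3 and at 59.4, 65.1 and 65.9 CPM with long tags. The 2 floxed libraries with long tags were above the other 9, without overlap (interaction log2 +1.51, SE 0.16, edgeR adjusted p = 0.0138), and leaving out any 1 of 8 libraries ended the call. The next 4 did not pass, each with an edgeR adjusted p of 0.221: Dbp (interaction log2 -1.07), the mast cell protease Mcpt4 (-3.15), Rasl12 (-1.80) and 2810004N23Rik (+1.5). Dbp was at 16.3 and 16.3 CPM in floxed libraries with long tags and at 32.7 CPM or more in all others. DESeq2 called 35 genes in the interaction, with 1221 at an unadjusted p under 0.05.

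Markers of other cell types were compared because whole tissue holds them. Over all genes 14.9% were higher and 16.4% lower, and of the endothelial markers below 25% were higher and 18.8% lower. Of 31 contractile muscle genes 0 rose and 0 fell. Their summed level was 672 to 26285 CPM in the libraries numbered 1 to 3, the top being BATI4KO library 3, and 287 to 4241 CPM in the others. The median log2 was +0.38 (-0.01 with cyclic loess scaling), and -1.07 with 5 lower without both libraries numbered 3; without BATI4KO library 3 alone it was -0.94 with 2 lower, and without library KO_5492 again 2 were lower. The complement gene C1qa fell (log2 -1.16, SE 0.23, edgeR adjusted p = 0.00303). Macrophage markers had 0 higher and 1 lower of 16 (5 lower without floxed library 3), with a summed level of 112 to 238 against 137 to 224 CPM. Lymphocyte markers had none of 16 passing, at 20.7 to 43.96 against 21.8 to 103 CPM in sum. Endothelial markers went both ways (4 higher, 3 lower of 16; 1 to 4 higher and 1 to 3 lower across the fits that left out 1 library, the fewest higher without library FX_5503), with the tight-junction gene Cldn5 falling (log2 -1.20, SE 0.29, edgeR adjusted p = 0.00821) and the VEGF receptor Flt1 rising (log2 +0.44, SE 0.12, edgeR adjusted p = 0.0176). Fibroblast genes had 2 higher of 20 (also 5 lower without floxed library 3), Col1a1 (+0.89) and Pdgfrb (+0.42), and erythroid genes 1 lower of 7. White adipocyte and nerve markers had 1 of 7 and 2 of 11 higher, and 0 and 1 lower. What part cell composition has in the differences between the styles was not tested. The labels record no cohort, harvest time or sequencing run, and title style cannot be told apart from any of these.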

How the data were processed

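RNA of whole brown adipose tissue was measured in 11 libraries; per the labels' protocols it was column-purified, depleted of ribosomal RNA, primed with random hexamers and tagmented. The authors deposited raw read counts per gene model with model length, per the file headers. The submitters' processing notes name edgeR, featureCounts 1.4.6, TopHat2 2.0.14, SAMtools 0.1.19, Picard 2.2.4, bcl2fastq 2.17.1.14 and build mm9. Their order and settings, and the strand of counting, were not given in the sources used here, so reads of overlapping genes cannot be told apart.

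Of 28541 models, 16051 passed edgeR's expression filter on genotype. The deposited counts were scaled by TMM and fitted with genotype and title style in edgeR 4.0.16 (R 4.3.3), with the quasi-likelihood F test and Benjamini-Hochberg threshold of 0.05. The interaction was fitted separately. The procedure was tested on simulated data. Alternatives covered scaling, filters, DESeq2 1.42.0, limma 3.58.1, length and GC corrections, left-out libraries and threshold. The smallest chi-square per gene between replicate libraries was 39.4, so none was counted as a duplicate.

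Members and lists were chosen with earlier results of these data known. Named genes were Irf4, Ucp1, Rmrp, Rpph1 and the core clock; the 15 largest changes per direction (mean of at least 5 CPM, at least 300 bases, no overlap, no accession, Gm or Rik name); up to 5 per direction under 300 bases; up to 4 per list; and the 5 smallest interaction p. Some genes that this rule names are not reported here. Sequences come from GENCODE M21 and RefSeq on GRCm38, by symbol.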

Additional observations from a re-analysis of the deposited data

Results flagged for a closer look

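A library stood apart from the others of its title style, by the size of its gap to the nearest value, in 31 of 230 groups of CPM values or library measures examined. A rate of about 1 in 20 would hold by chance only for independent groups of like values. These groups share libraries and pool genotypes, and many genes were named for their differences, so the count cannot be set against that rate.

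Floxed library 3 was far above the other libraries numbered 1 to 3 for the noncoding RNAs Rnu12 (50.9 CPM), Rnu1b2 (1082 CPM), Rpph1 (2140.0 CPM), Scarna6 (23.8 CPM), Snora23 (103 CPM) and Snord17 (47.99 CPM). It was likewise apart for the histone genes Hist1h4c (33.4 CPM), Hist1h4d (28.02 CPM), Hist1h4h (17.7 CPM) and Hist2h4 (11.5 CPM). Further genes in which it was far above were Cox2 (15858 CPM), Cox7a1 (239 CPM), GU332589 (10.3 CPM), Mrpl14 (21.2 CPM), Mrpl24 (20.7 CPM), Rpl19 (141 CPM) and Rpl38 (54.0 CPM), and Csnk1d, a clock kinase, was lowest there (76.0 CPM).

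Floxed library 1 was the high one for Acadl (2214 CPM), Arntl (4.43 CPM), Cs (2495 CPM) and Hlf (115 CPM). BATI4KO library 3 was the high one for Rora (15.6 CPM) and Unc45b (40.8 CPM), and BATI4KO library 2 was low for Pnpla2 (2353 CPM).

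Among libraries with long tags, library FX_5503 was far above the rest for Abhd5 (340.5 CPM), Arntl (19.3 CPM) and Mrpl24 (46.3 CPM). Library FX_5497 stood above for Csnk1d (86.7 CPM), and library KO_5494 for Meg3 (18.2 CPM) and Rnu1b2 (19.04 CPM).

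Cnnm2 differed between the genotypes in its response to title style, by the interaction test (log2 +1.51, BATI4KO minus floxed, edgeR adjusted p = 0.0138).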

How the results depend on the processing

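The counts of 2394 genes higher and 2637 lower moved most with the samples and the threshold. A test against a 1.5-fold change gave 152 and 123, a threshold of 0.01 gave 1160 and 1521, floxed libraries alone gave 291 and 365, and BATI4KO libraries alone gave 1456 and 1572; the last 2 use fewer libraries. Library totals alone as scaling gave 3344 higher and 1700 lower, and upper-quartile scaling 3154 and 1935, with the median of all genes at +0.14 and +0.11 instead of +0.03. Leaving out 1 library gave 1616 to 2574 higher and 1819 to 2734 lower. DESeq2 gave 2559 and 2911, of which 2347 and 2630 were shared with the edgeR calls. In the interaction DESeq2 called 35 genes where edgeR called 1, and leaving out 1 library gave 0 to 1; the cause was not tested. The length slope differed by 0.0517 over all models (p = 0.08, exact permutation test) and by 0.0516 to 0.0912 when 1 library was left out.

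For single genes named, 4749 gene values under other settings kept direction and side of the threshold, 326 kept the direction and lost the call, 27 gained it and 1 turned: Kcnq1ot1, a long nuclear RNA, went from +0.33 to -0.13 with the length correction. Floxed libraries alone ended the most calls. List medians moved by more than their spread over replicates in 25 of 1099 cases.

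No paired analysis was possible because the title styles compared share no numbers. Counts have no molecular identifiers, so precision covers counting and library spread only, and low counts limit the small nucleolar RNAs and histones. Each title style holds 2 or 3 libraries per genotype.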
